A study of Rattus norvegicus with 20 samples.

Results

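The cytoplasmic ribosomal protein genes were taken as the rows of the rat count table whose symbol is that of a protein of the large subunit (Rpl and a number, Rplp0 to Rplp2) or of the small subunit (Rps and a number, Rpsa), with at least 10 reads in at least 10 of 20 libraries. Of 68 symbols that matched by name, 66 met the minimum, out of 32545 genes in the table. The 66 comprised 40 genes of the large subunit and 26 of the small subunit. Where a symbol had several Ensembl identifiers, as 11 symbols did, the identifier with the most reads stood for it. All 66 passed the filter on low counts that left 14472 genes for testing, and 64 had at least 10 reads in every library. Just inside the minimum lay Rpl8, with 580 reads in all and 17 libraries at 10 or more, and Rplp2, with 681 reads and 19 libraries. Just outside lay Rpl10a and Rpl23a, which were at 0 reads in all 20 libraries.

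Ribosomal proteins assemble with ribosomal RNA into the small subunit, which reads the mRNA, and the large subunit, which joins the amino acids. Their mRNAs are among the most abundant of the cell. In mammals many of them begin with a C followed by a run of pyrimidines, the terminal oligopyrimidine tract, through which mTORC1 and Larp1 control their translation together. Their sequences have also been copied into the genome many times as processed pseudogenes, so that reads from these genes are often assigned to more than 1 place.

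The libraries came from microdissected cortical collecting ducts, tubules that take up water under vasopressin, of male Sprague-Dawley rats aged 5 weeks. Every rat, controls included, carried a minipump that released DDAVP, an agonist of the vasopressin V2 receptor, at 5 ng per hour. Control rats received 25 mL of water per day in gelled food and water-loaded rats 50 mL per day. Dissection followed at day 1 (3 rats of each treatment), day 2 (4 of each) or day 4 (3 of each), so that every library is a different rat and none was followed over time. The study addressed the escape of the collecting duct from vasopressin under a water load, and the cDNA was made in the tubule lysate by an amplification method written for single cells. No untreated rat without DDAVP is among the 20.

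A library held 33.5 to 74.9 M reads on genes, and 12665 to 15266 genes were detected. The principal cell markers, 11 of 11 and Aqp2 among them, and the intercalated cell marker Foxi1 were above 0 in all 20 libraries. The libraries of day 1 control 1 and of day 1 water-loaded 2 differed from the rest, with scaling factors of 0.644 and 0.686 and the lowest numbers of detected genes, 12665 and 12788. The summed level of 17 proximal tubule markers also peaked in day 1 water-loaded 2, at 8292 CPM (reads scaled to the library size), against a median of 149.0 over all libraries. Endothelial and stromal markers had their highest sum in day 1 control 1, at 2315 CPM, and the next highest was 764 CPM in day 2 control 4. Counts of calls over the members are given without day 1 control 1 or day 1 water-loaded 2 where this moved them by more than 1.5 times, or to or from 0. Medians are given so at least where they moved by 0.331 or more, the SD between rats of the members' mean log2 CPM.

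The start sequences of 6 of the genes are shown because the members moved together between days and because the terminal oligopyrimidine tract is read at this place. Each line gives 30 bases around the transcript start annotated by RefSeq on the GRCr8 assembly, 15 on each side, on the strand of the gene. Capitals mark a run of C and T that begins with C at the annotated start and holds at least 4 further C or T. Rpl19 (chr10:83519049-83519078, plus strand), Rps18 (chr20:4933730-4933759, plus strand), Rps2 (chr10:14251833-14251862, plus strand) and Rpl36 (chr9:1533765-1533794, plus strand) fell from day 1 to day 2. Rplp0 (chr12:46718376-46718405, minus strand) and Rpl38 (chr10:100200420-100200449, plus strand) were not called between these days.
Rpl19: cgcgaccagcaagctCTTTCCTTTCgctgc
Rps18: cacgtcacttccgctCTCTCTTCCacagga
Rps2: cctcttctttttcttcgggaaaacacgtga
Rpl36: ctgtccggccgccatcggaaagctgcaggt
Rplp0: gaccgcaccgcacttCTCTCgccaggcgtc
Rpl38: cttcgttctttttccgttgttcggtgctcg

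Of the 66 genes, 51 had a single promoter entry in the RefSeq table, 1 had several and 14 had none. A C followed by 4 C or T at the annotated start was found in 20 of the 51 (39.2%), against 881 of 33469 promoters of all genes (2.63%). It was found in 14 of 33 genes of the large subunit and 6 of 18 of the small subunit. CCGGAA, the core of the binding motif of ETS factors, lay on either strand of the window from 250 bases before to 50 after the start in 28 of the 51 (54.9%), against 5004 of all promoters (15%). The window and the pyrimidine start can overlap this motif. A match is a description of the letters, not of a bound factor. No match says only that these letters are not at this annotated start.

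Levels per gene length differed widely among the members. On the FPKM scale, in which reads are divided by gene length and library size, the median over 20 libraries was highest for Rplp1, a protein of the stalk that recruits translation factors, at 4028. Next came Rpl5 at 2122, Rpl13a at 2032, Rpl4, which lines the exit tunnel, at 1934 and Rpl19 at 1873. The ranges of Rpl5 (1220 to 3058 FPKM), Rpl13a (1255 to 4668), Rpl4 (1237 to 3013) and Rpl19 (1110 to 4359) overlapped almost completely, so the order among these 4 is not resolved. Rplp1 ranged from 1779 to 7704 FPKM and also overlapped them.

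At the other end, the median FPKM was 0.506 for Rpl8, 1.21 for Rpl7a, 1.79 for Rplp2, 4.57 for Rpl35a and 7.15 for Rps19, the gene most often mutated in human Diamond-Blackfan anaemia. Rps6, the phosphorylated target of the kinases downstream of mTORC1, had a median of 8.08 FPKM, and Rps4x 20.1 FPKM. Levels of members with near-identical copies are uncertain, since reads that fit several places were not counted. Rpl35a had 5 identifiers, of which the one used held 30.8% of the reads, and Rpl7a had 2, of which the one used held 50.6%. A further 253 rows that the annotation names as ribosomal proteins lay outside the rule and held a median of 0.346% of the reads on genes. Among them LOC100362640, annotated as resembling the X-linked protein of Rps4x, held 288404 reads, against 20907 on Rps4x itself.

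**Figure D1:**
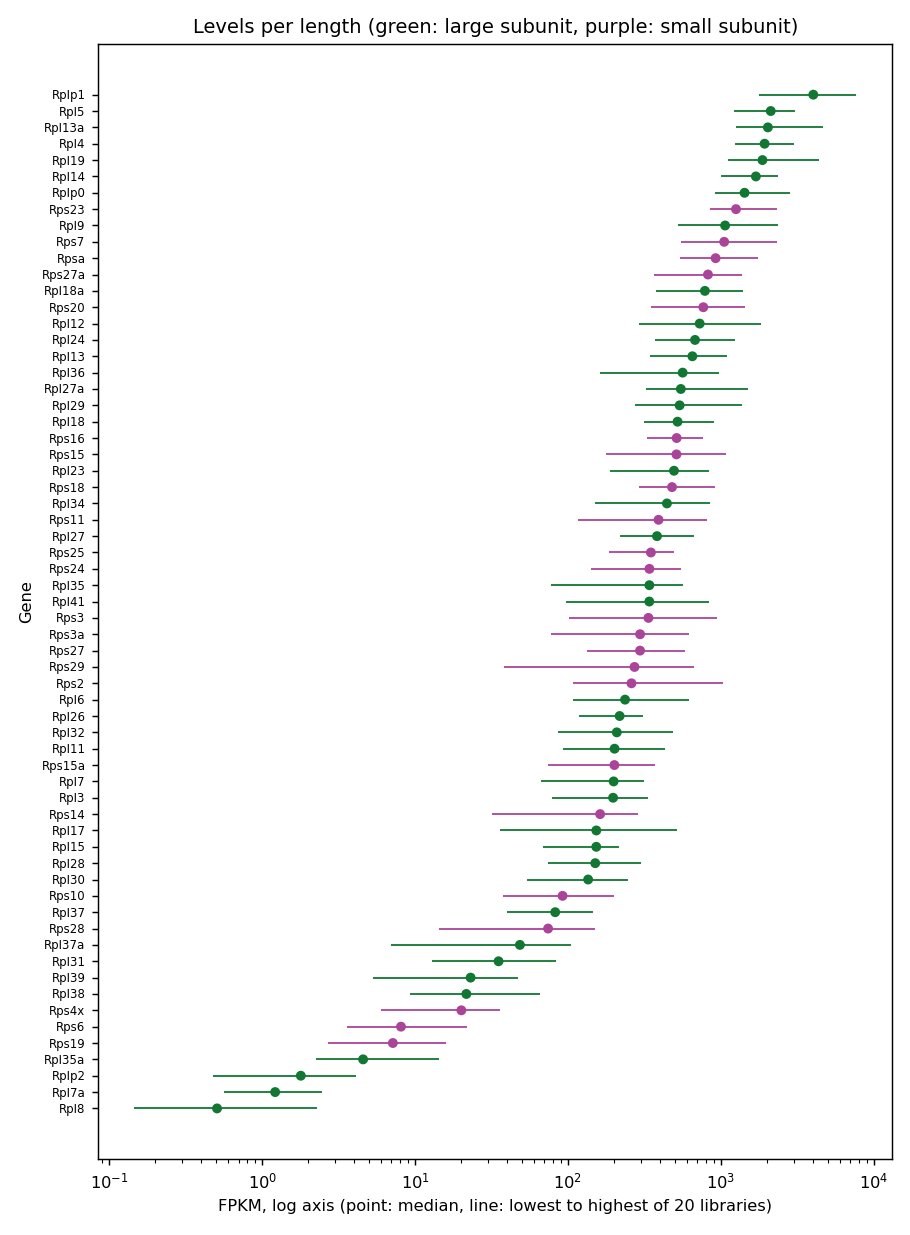
Level of 63 of the 66 genes in FPKM on a log axis, with the median over 20 libraries as a point and the lowest to highest library as a line, coloured by subunit. Medians ran from 0.506 for Rpl8 to 4028 for Rplp1.

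The members varied less between rats of a group than most genes did. This spread also depends on the level of a gene, and level was not matched, here or in the shares of genes called. The standard deviation of log2 CPM within groups, pooled over the 6 groups, had a median of 0.514 over the members and 1.4 over all genes tested, and all 66 were below the latter. It was among the smallest for Rps25 (0.251), Rpsa (0.291), Rps16 (0.33) and Rpl7a (0.334). It was largest for Rpl37a (1.05), Rpl17 (1.02), Rpl8 (0.951), Rps29 (0.915) and Rps14 (0.912). Members also deviated from their group means together: the correlation of these deviations over the 20 libraries had a median of 0.432 over 2145 pairs of members and 0.0165 over pairs of all genes, as a description of libraries that share depth and scaling factors. Such a shared deviation is seen in day 2 control 3, where the median log2 CPM of the members was 6.71, the lowest of the 20, and in day 1 control 1, where it was 9.03, the highest.

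The levels were highest at day 1, in both treatments. The CPM of the 66 genes, scaled by TMM factors, summed to 65050, 36660 and 34260 in the day 1 control rats and to 30520, 48780 and 32230 in the day 1 water-loaded rats. At day 2 the sums were 25580, 22590, 18500 and 28620 in control rats and 25400, 25150, 22080 and 30790 in water-loaded rats. At day 4 they were 31760, 33760 and 22660 in control rats and 21080, 24380 and 20710 in water-loaded rats. The highest later library was day 4 control 2, and 4 of the 6 day 1 libraries lay above it, the other 2 being water-loaded.

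The ratio of the mean sums, day 2 over day 1, was 0.526 in control rats and 0.695 in water-loaded rats, and day 4 over day 1 gave 0.649 and 0.593. Without day 1 control 1 the control ratios were 0.672 and 0.829, and without day 1 water-loaded 2 the water-loaded ratios were 0.824 and 0.703. As a share of reads on genes, with no scaling factor, the members held 3.33% to 4.19% in the 6 day 1 libraries, 2.04% to 2.91% in the 8 of day 2 and 2.46% to 3.05% in the 6 of day 4, so that the day 1 range lay above the others. In libraries of whole tubules, fewer cells of a type and less RNA per cell cannot be told apart. Day of sampling and any difference in how the rats or libraries of a day were handled cannot be told apart either, since the labels give no batch.

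**Figure D2:**
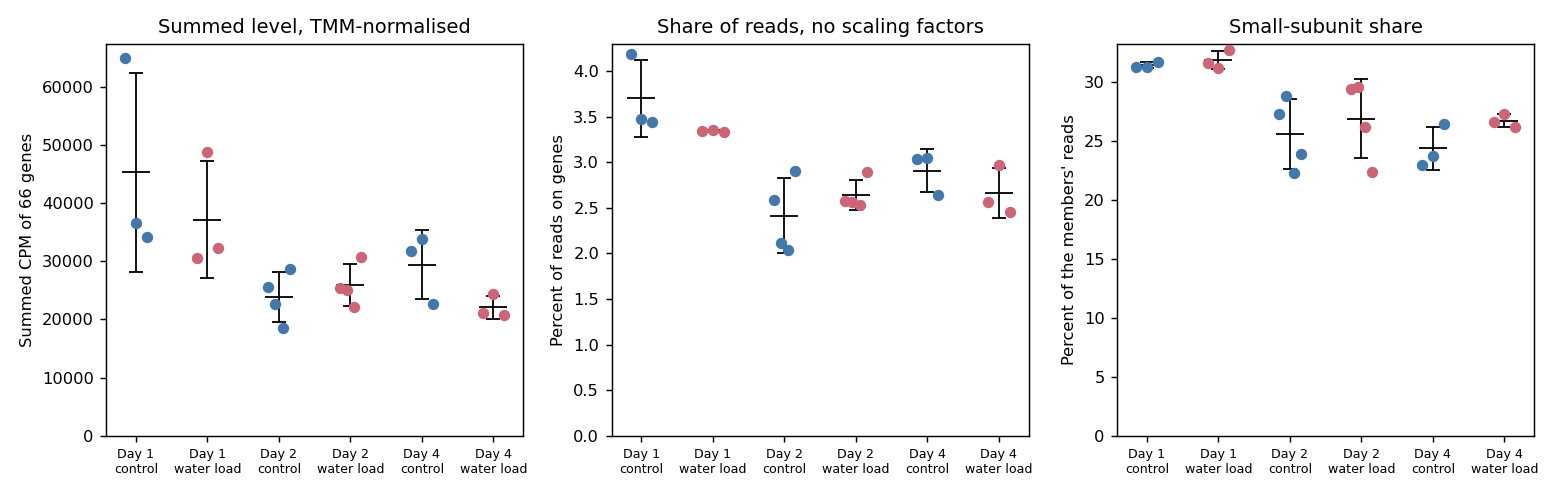
Summed level of the 66 genes in each library by day and treatment: summed TMM-scaled CPM (left), percent of reads on genes without scaling factors (middle) and percent of the members' reads that fell on the small subunit (right). Points are rats, and horizontal lines and bars are the group mean and SD; the day 1 libraries lie at 3.33% of reads or more in the middle panel, and later libraries at 3.05% or less.

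Between days among control rats, 18 of 66 members changed at an adjusted p under 0.05 (27.3%), against 2.45% of all genes tested, by an F test over the 3 days with edgeR. They comprised 8 of 26 genes of the small subunit and 10 of 40 of the large subunit. Among water-loaded rats the same test called 2 members, against 0.263% of all genes tested. Rpl29 (adjusted p = 0.0244) was among them and was also called in control rats. The 2 became 0 when day 1 water-loaded 2 or day 4 water-loaded 1 was left out, 1 when day 4 water-loaded 2 or 3 was, and 5 when day 1 control 1 or day 2 control 3 was. Whether the day pattern differed between treatments was tested as the effect of the water load between days, for which 0 members and 0% of all genes were called. In that test 0 members were below 0.05 unadjusted, against 1239 of all genes tested, and the smallest adjusted p of a member was 0.611.

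The count in control rats changed when single libraries were left out and when measures of the libraries entered the fit. Counts from refits with other libraries or settings, above and below, stand without the share of all genes called in the same refit unless it is given. Without that share they describe the members only. Leaving out day 1 control 1 gave 3 calls, day 4 control 1 gave 8, day 4 control 2 gave 9 and day 2 control 4 gave 11. Without both day 1 control 1 and day 1 water-loaded 2 it was 8. The share of reads mapped to more than 1 place was 23.9% to 26.9% in day 1 control rats, 21.3% to 24.7% at day 2 and 22.4% to 23.4% at day 4. With that share in the fit as a covariate 0 members were called, and with detected genes as the covariate 10. Reads from these genes are often assigned to more than 1 place, so that share can hold part of their own level. A fit with it therefore cannot separate library quality from the day difference itself, here or below. Rpl36 was called whichever single library was left out, with an adjusted p of at most 0.0357, and 16 members each lost the call in at least 1 case.

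In the small subunit, Rpsa, also described as a laminin receptor precursor, was at 2340, 1593 and 1325 CPM at day 1 in control rats, at 761, 741, 496 and 785 CPM at day 2, and at 736, 728 and 567 CPM at day 4. All day 1 libraries lay above all later control libraries. On the log2 scale Rpsa fell by 1.33 to day 2 (SE 0.24, adjusted p = 0.0158) and by 1.37 to day 4 (SE 0.26, adjusted p = 0.0123).

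Rps2, at the entry of the mRNA channel, had the largest difference of the 66 from day 1 to day 2. It was at 1269, 649 and 861 CPM at day 1 in control rats, at 221, 248, 85.3 and 109 CPM at day 2, and at 174, 112 and 83.4 CPM at day 4. In water-loaded rats it was at 465, 1258 and 884 CPM, then at 125, 250, 97.2 and 223 CPM, then at 91.1, 201 and 644 CPM. The last of these, day 4 water-loaded 3, reached the day 1 range, while the control rats of days 1 and 4 did not overlap. In control rats Rps2 fell by 2.48 to day 2 (SE 0.55, adjusted p = 0.0343) and fell by 2.91 to day 4 (SE 0.62, adjusted p = 0.0196).

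Rps18, which contacts the large subunit, was at 643, 399 and 404 CPM at day 1 in control rats and at 231, 211, 122 and 175 CPM at day 2, with no overlap. It fell by 1.39 on the log2 scale (SE 0.29, adjusted p = 0.0256). Rps3, at the mRNA entry and also an endonuclease in DNA repair, was at 1169, 725 and 590 CPM at day 1 in control rats, at 373, 421, 73.7 and 148 CPM at day 2 and at 98.1, 106 and 140 CPM at day 4. The libraries of day 2 control 3 and 4 were far below the other 2 of that day. The same held in day 2 water-loaded rats, where Rps3 was at 397, 406, 145 and 94.7 CPM in libraries 1 to 4. Rps3 fell by 2.85 to day 4 (SE 0.59, adjusted p = 0.0172), while its difference to day 2 was -1.70 (SE 0.51, adjusted p = 0.0924). Rps23, of the decoding centre, was also called over days in control rats (F test adjusted p = 0.048).

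In the large subunit, Rpl19, which forms a bridge to the small subunit, was at 4721, 2394 and 2324 CPM at day 1 in control rats, at 1420, 1326, 727 and 1254 CPM at day 2, and at 940, 1131 and 798 CPM at day 4. The groups of day 1 and the later days did not overlap. Rpl19 fell by 1.41 to day 2 (SE 0.29, adjusted p = 0.0256) and by 1.72 to day 4 (SE 0.32, adjusted p = 0.012). Rpl29, a small basic protein of the subunit surface, was at 992, 734 and 865 CPM at day 1 in control rats, at 377, 311, 204 and 276 CPM at day 2, and at 189, 397 and 240 CPM at day 4. It fell by 1.56 (SE 0.31, adjusted p = 0.0256) and by 1.65 (SE 0.34, adjusted p = 0.0161).

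Rpl36 followed another course. In control rats it was at 404, 208 and 205 CPM at day 1, at 82.8, 54.8, 48.8 and 54.1 CPM at day 2, and at 287, 327 and 148 CPM at day 4. Day 2 lay below both other days, and days 1 and 4 overlapped. Rpl36 fell by 2.18 to day 2 (SE 0.39, adjusted p = 0.0158), and the difference of day 4 from day 1 was -0.10 (SE 0.41, adjusted p = 0.946).

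Rpl13 had a similar course. It fell by 1.32 to day 2 (SE 0.31, adjusted p = 0.04), with a difference of -0.14 from day 1 at day 4 (SE 0.33, adjusted p = 0.869).

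Further calls over days in control rats included Rpl28, Rplp1, Rpl32, Rpl34, Rpl7 and Rpl18, with F test adjusted p from 0.0307 to 0.0463. Rplp1 was at 5902, 3569 and 3188 CPM at day 1, at 1807, 1464, 797 and 1730 CPM at day 2, and at 2927, 2450 and 1648 CPM at day 4. The day 1 libraries of Rplp1 were above all later control libraries, and it fell by 1.54 to day 2 (SE 0.32, adjusted p = 0.0256).

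**Figure D3:**
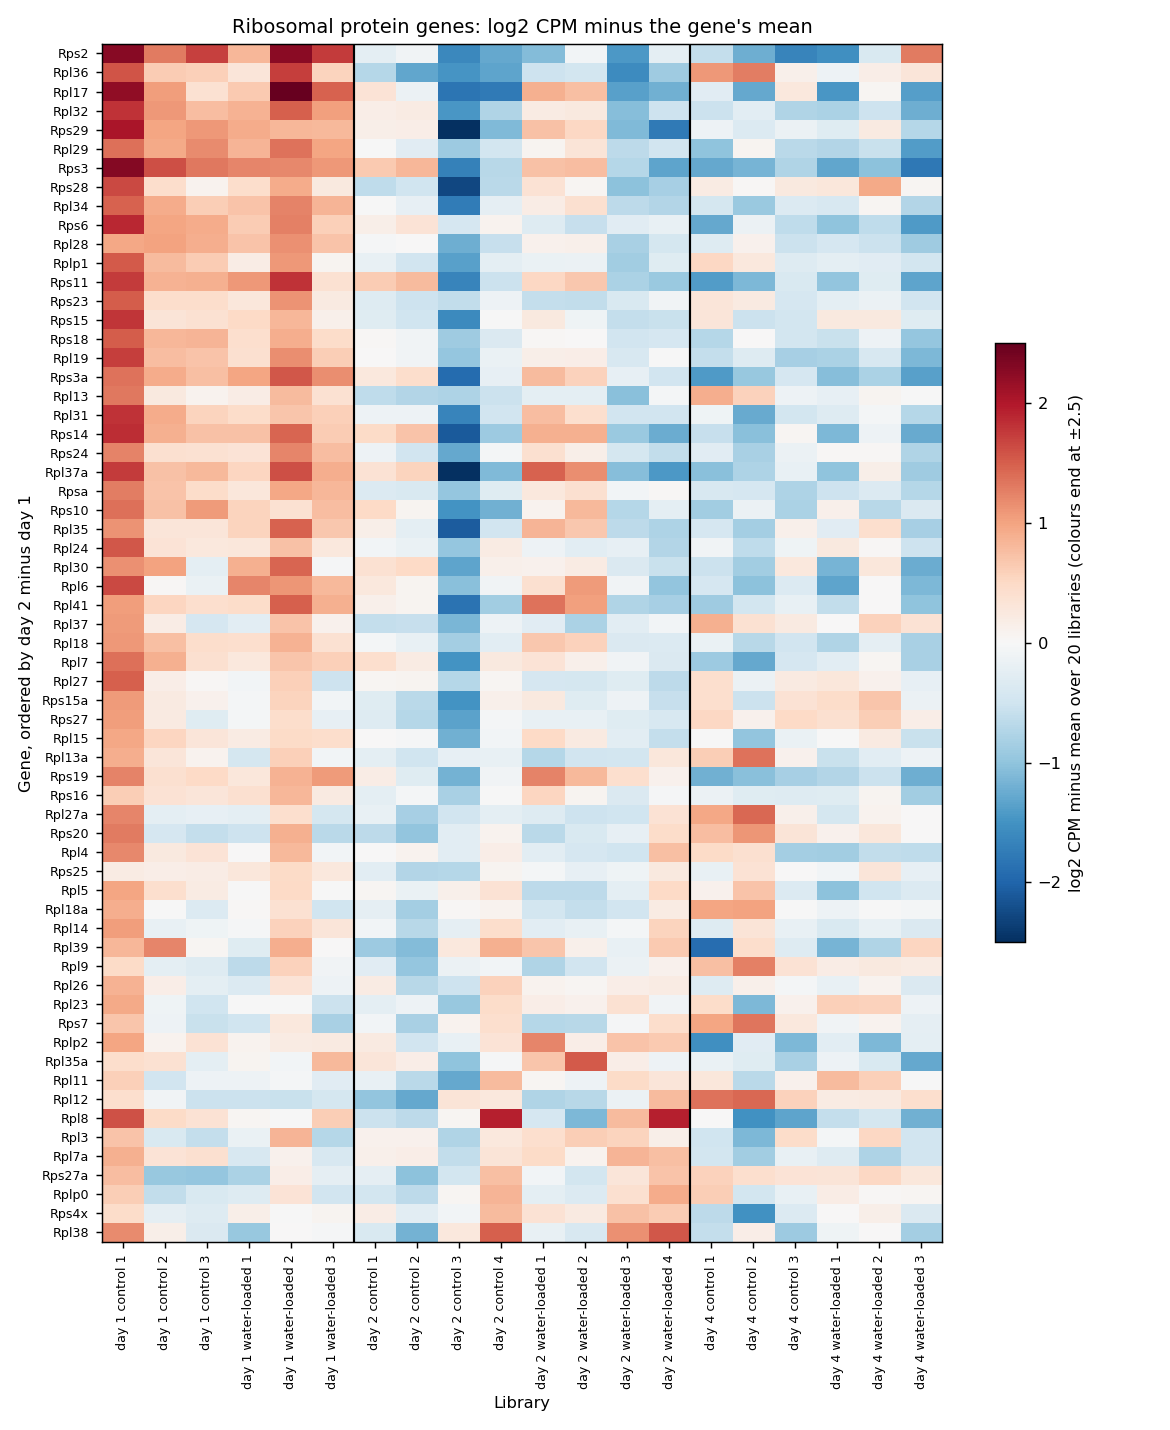
Log2 CPM of 63 of the 66 genes minus its mean over 20 libraries, with libraries in columns by day and treatment and genes in rows ordered by the day 2 minus day 1 difference; the colour scale ends at 2.5 in both directions. The 6 day 1 columns are mostly red, most strongly day 1 control 1 and day 1 water-loaded 2, and the lower rows, such as Rplp0 and Rpl38, do not follow.

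Each pair of days was then compared directly, a choice made after the F tests were seen. In control rats 63 of 66 members were lower at day 2 than at day 1, with a median log2 difference of -1.02, against 0.13 over all genes tested. Of these 12 fell and 0 rose at an adjusted p under 0.05 by edgeR, against 0.795% of all genes that fell and 0.546% that rose, and 39 lower and 0 higher members were below 0.05 unadjusted, against 9.24% of all genes lower and 10.7% higher. Day 4 against day 1 in control rats also gave 12 that fell and 0 that rose, with a median of -1.01, against 1.5% of all genes that fell and 0.898% that rose, and 31 lower and 2 higher members were below 0.05 unadjusted, against 11.4% and 10.3%. These comparisons share the day 1 rats. With the share of multi-mapped reads as a covariate 0 members were called at either day by edgeR, 16 and 21 were below 0.05 unadjusted, and the medians were -0.49 and -0.38. The shares of all genes in that fit are not given here, so its counts describe the members only. Without day 1 control 1 the calls were 0 and 2 and the median of day 4 minus day 1 was -0.58. The calls of day 2 became 0 without day 2 control 3 and 1 without day 2 control 4, and those of day 4 were 1 without day 4 control 1 and 6 without either day 4 control 2 or 3.

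In water-loaded rats the median log2 difference was -0.50 at day 2 and -0.84 at day 4, each against day 1, and without day 1 water-loaded 2 it was -0.29 and -0.61. At day 2, 0 members were called, against 0.138% of all genes called lower, and 20 were below 0.05 unadjusted, all lower, against 6.96% of all genes lower. DESeq2 called 6 members, against 5.74% of all genes in either direction, and limma-voom 3, against 0.891%. The count was 1 when day 1 control 1 or day 1 water-loaded 1 was left out. At day 4, 3 members fell, among them Rpl29 and Rps3a, against 0.214% of all genes. That count was 0 without day 1 water-loaded 2 and 0 without any of the 3 day 4 water-loaded libraries, and it reached 9 without day 1 control 1, day 2 control 2 or day 2 control 3, 7 without day 2 water-loaded 4, 6 without day 2 control 4, and 5 when either day 4 control 3 or day 1 water-loaded 1 was left out. Lower in both treatments at day 2 than at day 1 were 51 of 66 members (77.3%), against 26.2% of all genes tested, from control and water-loaded libraries that are separate rats.

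**Figure D4:**
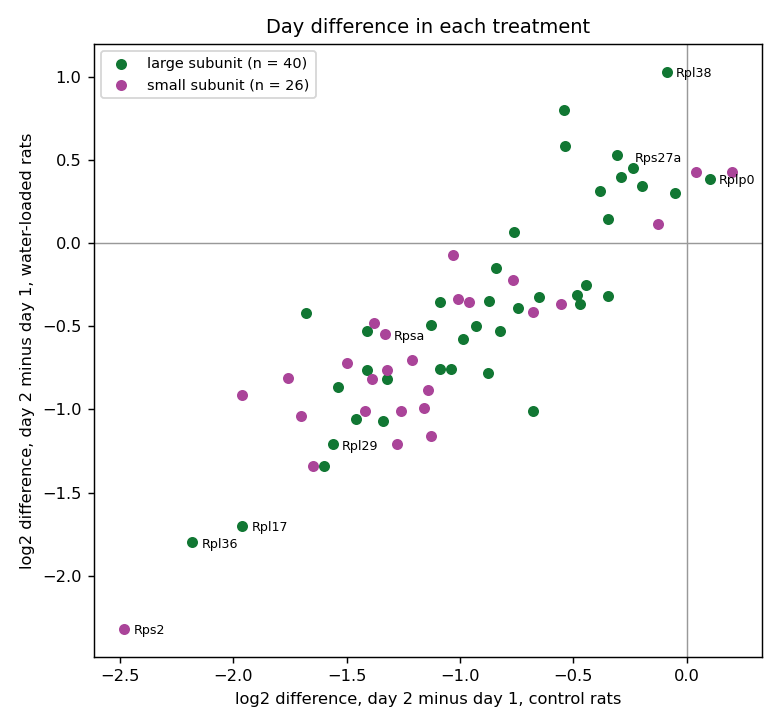
Log2 difference, day 2 minus day 1, of each of the 66 genes in control rats (horizontal axis) and in water-loaded rats (vertical axis), coloured by subunit. Rps2 and Rpl36 lie farthest down on both axes, 51 genes lie in the lower left part, and Rplp0, Rps27a and Rpl38 lie near or above 0.

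Over both treatments together, 23 members fell from day 1 to day 2, against 3.5% of all genes that fell, and 0 rose, against 2.33%. Among the smallest p were those of Rpl36 (log2 difference -1.99, SE 0.28, adjusted p = 0.000562), Rpl29 (-1.39, SE 0.22, adjusted p = 0.00122) and Rps2 (-2.40, SE 0.39, adjusted p = 0.00185). From day 1 to day 4, 26 members fell and 0 rose, against 4.48% of all genes that fell and 3.02% that rose. With library size alone as the scaling, which moved the median of all genes in that comparison up by 0.28, 15 fell and 4 rose. The shares of all genes called under that scaling are not given here, so its counts describe the members only. In 18 members every day 1 library lay above every day 2 library, against 1.38% of all genes, and in 27 above every day 4 library, against 3.34%.

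These counts also moved with the libraries and covariates. From day 1 to day 2 the count was 14 when day 1 control 1 was left out, 15 for day 1 water-loaded 2, 13 for both and 0 with detected genes as a covariate, where the median difference was -0.54. From day 1 to day 4 it was 16 without day 1 control 1, 17 without day 1 water-loaded 2, 16 without day 4 water-loaded 3, 14 with detected genes and 5 with the share of multi-mapped reads. Detected genes numbered 12665 to 13669 at day 1, 13322 to 15266 at day 2 and 13071 to 14482 at day 4. Multi-mapped reads came to 23.9% to 26.9%, 21.3% to 26.9% and 21.7% to 23.8% in the same order.

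The subunits were set side by side as a description, with no test. From day 1 to day 2 over both treatments the median log2 difference was -1.03 over 26 genes of the small subunit, 24 of them lower, and -0.64 over 40 genes of the large subunit, 31 of them lower. Of the members' reads, 31.2% to 32.7% fell on the small subunit in day 1 libraries, 22.3% to 29.6% in day 2 libraries and 23.0% to 27.3% in day 4 libraries. All 6 day 1 libraries were therefore above all 14 later ones on a measure that does not depend on scaling between libraries, although it weights abundant members most. Within day 2 this share was lower in libraries 3 and 4 of both treatments. It was 27.3%, 28.8%, 22.3% and 23.9% in control rats 1 to 4, and 29.4%, 29.6%, 26.2% and 22.4% in water-loaded rats. What libraries 3 and 4 have in common was not tested. Genes with the pyrimidine start had a median log2 difference of -1.004 (20 genes) and the 31 without it -0.673. The 31 include Rps23, Rpl27a and Rps24, whose runs of C and T at the annotated start, of 19, 19 and 9 bases, begin with T. The split therefore depends on the annotated base and does not separate genes with a tract from genes without 1. Rps2 and Rpl36, with the largest falls, had no match at the annotated start, and in Rps2 a run of C and T lies just before it.

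Some members did not follow the others. Rplp0, the base of the stalk and a common reference gene in quantitative PCR, was at 2551, 1079 and 1288 CPM at day 1 in control rats, at 1219, 1063, 1736 and 3014 CPM at day 2, and at 2556, 1221 and 1469 CPM at day 4. The days overlapped throughout. Its difference over both treatments was 0.24 from day 1 to day 2 (SE 0.28, adjusted p = 0.668) and 0.14 to day 4 (SE 0.30, adjusted p = 0.842).

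Rps27a, which is translated as a fusion with ubiquitin, was at 633, 193 and 191 CPM at day 1 in control rats, at 318, 181, 268 and 627 CPM at day 2, and at 556, 500 and 472 CPM at day 4. Day 1 control 1 was above the later libraries and the other 2 near the bottom. The difference over both treatments was 0.23 at day 2 (SE 0.30, adjusted p = 0.709) and 0.60 at day 4 (SE 0.33, adjusted p = 0.266). Rpl38, known from mouse for its part in translating Hox mRNAs, had the highest value at day 2, 0.47 (SE 0.63, adjusted p = 0.72), at 2.11 to 14.3 CPM. Rpl12 had the highest at day 4, 0.99 (SE 0.31, adjusted p = 0.0545).

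Rpl5 and Rpl11, which bind Mdm2 when ribosome assembly is disturbed, were not called between days. Rpl5 had a difference of -0.42 at day 2 (SE 0.22, adjusted p = 0.25) and -0.56 at day 4 (SE 0.23, adjusted p = 0.142) over both treatments. Rpl11 had differences of 0.07 (SE 0.27) and 0.27 (SE 0.29). Rps6 fell to day 4 by 1.91 on the log2 scale (SE 0.54, adjusted p = 0.0357), at a level of 10.3 to 25.2 CPM at day 1 and 2.51 to 6.14 CPM at day 4, with no overlap. Rps14, whose loss in human marrow marks a form of myelodysplastic syndrome, fell to day 4 by 1.71 (SE 0.48, adjusted p = 0.0371). Rpl41, among the shortest proteins known, fell to day 4 by 1.33 (SE 0.40, adjusted p = 0.0462).

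The most and least variable members need their spread beside them. Rpl17, of the exit tunnel, was at 326, 145 and 91.1 CPM at day 1 in control rats, at 88.9, 63.0, 19.6 and 20.5 CPM at day 2 and at 57.2, 28.8 and 83.7 CPM at day 4. Its difference of -1.96 at day 2 in control rats had an SE of 0.69 (adjusted p = 0.142). Rps25, the least variable, was at 140, 137 and 139 CPM at day 1 in control rats and at 102, 73.2, 74.9 and 128 CPM at day 2. These groups of Rps25 did not overlap, but the difference of -0.55 (SE 0.27, adjusted p = 0.251) did not pass the test.

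The water load changed no member at the threshold, at any day or on average. At day 1 the median log2 difference, water-loaded minus control, was -0.28, with 14 members higher and 52 lower; 0 were called, against 0% of all genes, and 0 were below 0.05 unadjusted. Without day 1 control 1 that median was 0.14, and without day 1 water-loaded 2 it was -0.48. At day 2 the median was 0.27, with 53 higher; 0 were called, against 0% of all genes, and 1 was below 0.05 unadjusted. Without day 2 control 3 that median was 0.09, and with the share of multi-mapped reads as a covariate it was -0.13. At day 4 the median was -0.08, with 27 higher; 0 were called, against 0% of all genes, and 8 were below 0.05 unadjusted, 7 of them lower. With library size alone as the scaling it was 0.19, where the median of all genes moved up by 0.23.

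Averaged over days the median was -0.05 (0.10 with library size alone, where the median of all genes moved up by 0.13; 0.11 when day 1 control 1 was left out, and -0.13 when day 1 water-loaded 2 was), and 0 members were called, against 0.159% of all genes; 4 were below 0.05 unadjusted, against 13.5% of all genes. DESeq2 and limma-voom also called 0 members at each day and on average. Over all genes DESeq2 called 1126 at day 1, 77 at day 2 and 319 at day 4, limma-voom 2, 20 and 0, and the edgeR test left 15.6%, 5.23% and 7.22% of genes below 0.05 unadjusted. The median half-width of the members' 95% interval was 0.87 on the log2 scale at day 1, 0.75 at day 2, 0.87 at day 4 and 0.48 on average, the last a 1.4-fold change. For 52 of 66 members the interval of the average lay within 1 log2 unit of no difference. A p that misses the threshold does not show that the treatments were alike.

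The members with the smallest p are given as values that did not pass. At day 2 Rpsa was at 761, 741, 496 and 785 CPM in control rats and at 1171, 1265, 923 and 994 CPM in water-loaded rats. All 4 water-loaded rats were above all 4 controls, 1 of 66 members to be so against 2.35% of all genes. The log2 difference was 0.65 (SE 0.22, interval 0.18 to 1.11, adjusted p = 0.857 by edgeR), against -0.14 at day 1 and -0.0031 at day 4. Also at day 2, Rpl41 had a difference of 0.96 (SE 0.48, adjusted p = 1) and Rpl18 of 0.53 (SE 0.27, adjusted p = 1). In the other direction stood Rpl27 at -0.35, Rpl5 at -0.29 and Rps6 at -0.41.

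At day 4 Rpl13a, which also acts in the GAIT complex of human macrophages, was at 1888, 3117 and 1323 CPM in control rats and at 831, 1015 and 1124 CPM in water-loaded rats. All 3 water-loaded rats were lower, as in 7 of 66 members, against 6.73% of all genes. The log2 difference was -1.09 (SE 0.34, interval -1.79 to -0.39, adjusted p = 0.674). Rpl27a differed by -1.04 (SE 0.40, adjusted p = 0.674). In both genes day 4 control 2 was the highest library of the 6. On the other side Rps2 had a difference of 1.34 (SE 0.59, adjusted p = 0.674), with day 4 water-loaded 3 at 644 CPM and the other 2 at 91.1 and 201 CPM. Rpl11 stood at 0.53 and Rpl7 at 0.53.

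At day 1 the smallest p of lower members included those of Rpl27 at -0.64 (SE 0.37, adjusted p = 0.414) and Rps18 at -0.48. The smallest p of higher members were those of Rpl35 at 0.33, Rpl6 at 0.30 and Rpl41 at 0.32, with adjusted p from 0.851 to 0.865. On average over days, Rpl5 stood at -0.50 (SE 0.18, interval -0.88 to -0.12, adjusted p = 0.224) and Rpl13a at -0.49 (SE 0.18, adjusted p = 0.238). In the other direction were Rpl41 at 0.43, Rps2 at 0.44 and Rpl35 at 0.40, with adjusted p from 0.614 to 0.632.

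**Figure D5:**
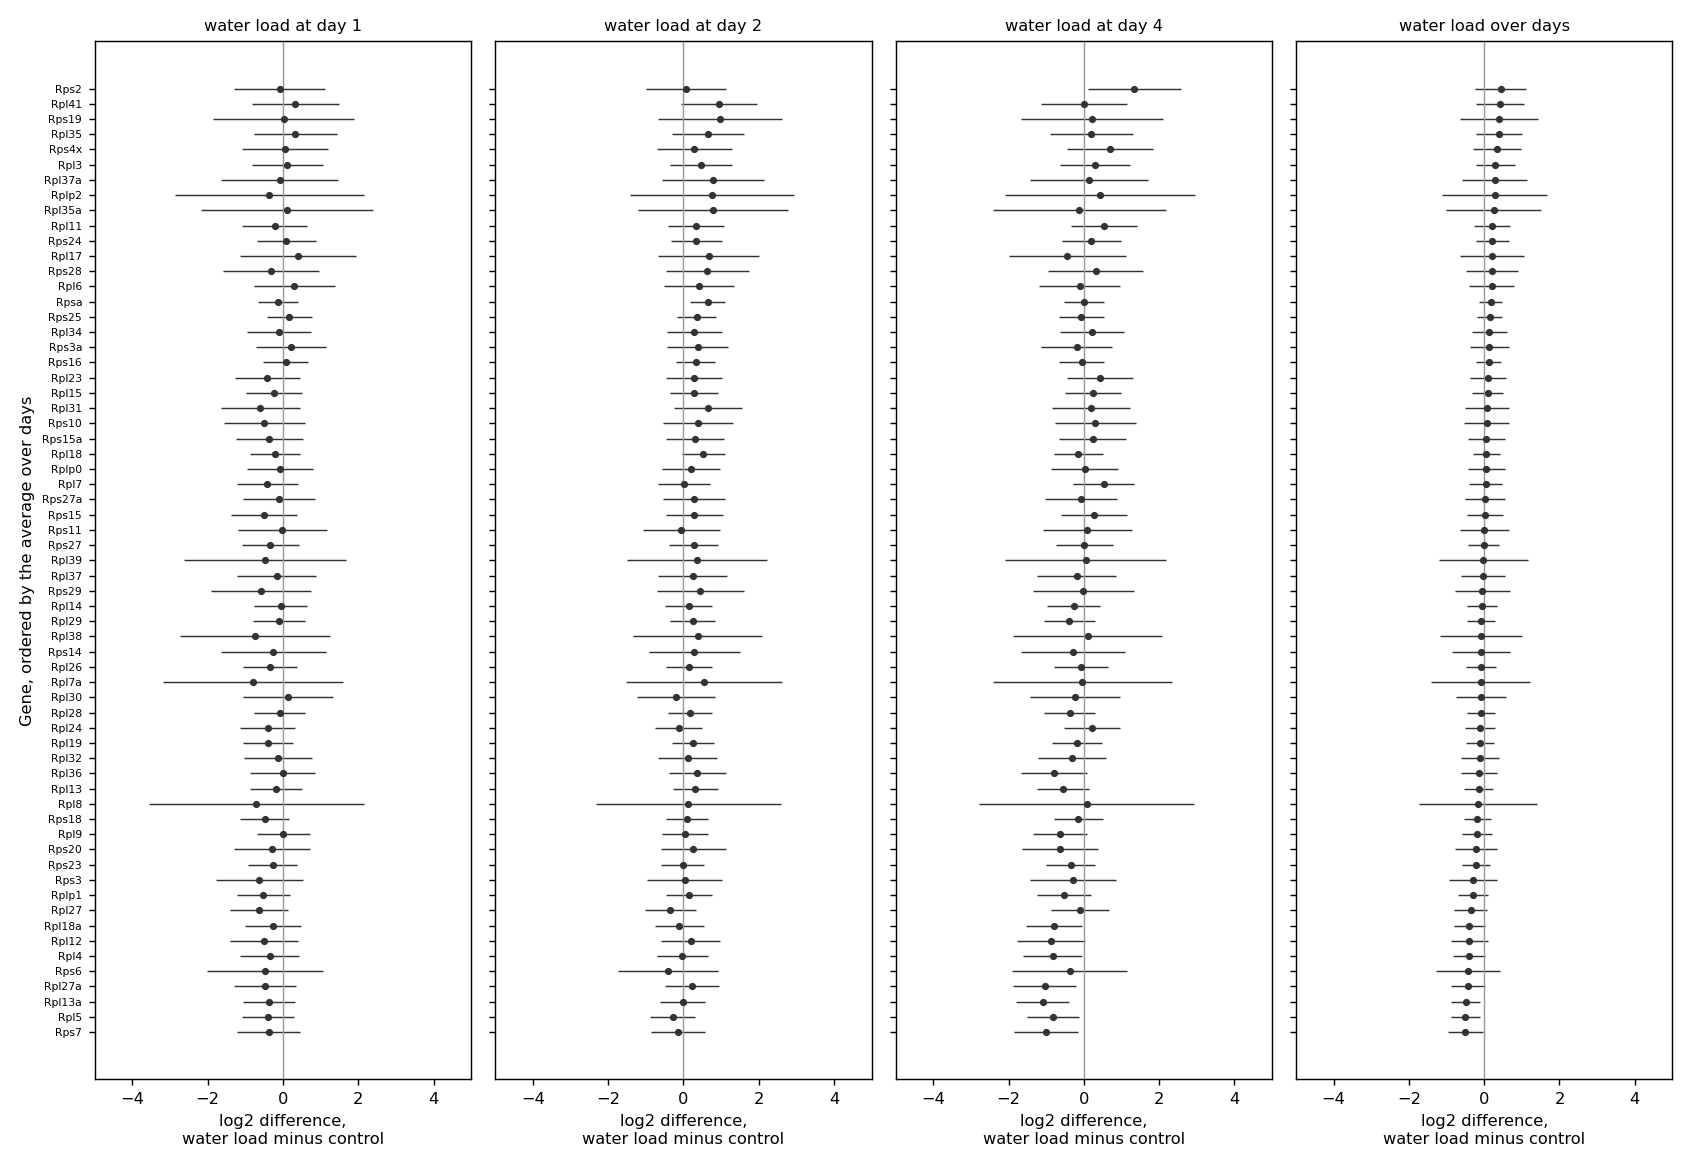
Log2 difference, water load minus control, of 63 of the 66 genes at days 1, 2 and 4 and averaged over days, with the 95% interval of the fit as a line; genes are ordered by the average. Most intervals cross 0, and 0 of the genes shown passed the adjusted threshold in any panel.

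The related gene lists put the members beside other genes of translation. Over both treatments, 3.5% of all genes tested fell and 2.33% rose at day 2, and 4.48% fell and 3.02% rose at day 4. Of 14472 genes tested, 8092 were higher at day 2, with a median log2 difference of 0.15. The counts of calls in short lists are to be read beside these shares. Of 47 ribosome biogenesis factors tested, 32 were higher at day 2 than at day 1 over both treatments, with a median log2 difference of 0.44; 1 rose, Sbds, which releases the anti-association factor Eif6 from the large subunit (1.70, SE 0.45, adjusted p = 0.033), and 1 fell, Dkc1, the pseudouridine synthase of ribosomal RNA (-0.94, SE 0.26, adjusted p = 0.0408). From day 1 to day 4 their median was 0.00, and Sbds rose and Pes1 fell. Of 73 mitochondrial ribosomal proteins, 44 were lower at day 2, with a median of -0.10, and 8 fell and 0 rose. Mrps35 (-1.47, SE 0.24, adjusted p = 0.00217), Mrpl54 (-1.38, SE 0.27, adjusted p = 0.00644) and Mrps26 (-1.22, SE 0.25, adjusted p = 0.00886) were among the 8. At day 4, 7 fell and 1, Mrps12, rose, with a median of -0.28.

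Of 23 other genes whose mRNA begins with the pyrimidine tract, 13 were lower at day 2, with a median of -0.31; 2 fell and 2 rose. Those that fell were Eif3f, a subunit of an initiation factor (-2.94, SE 0.36, adjusted p = 0.000191), and Impdh2, of guanine nucleotide synthesis (-0.98, SE 0.25, adjusted p = 0.0275). Npm1 (0.88, SE 0.24, adjusted p = 0.0401) and Hnrnpa1 (1.05, SE 0.31, adjusted p = 0.0469) rose. At day 4, 17 of the 23 were lower, with a median of -0.77, and 9 fell and 0 rose, among them the elongation factors Eef1a1 (-1.46, SE 0.29, adjusted p = 0.0044) and Eef2 (-1.06, SE 0.19, adjusted p = 0.00252).

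Of 30 other initiation and elongation factors, 0 were called at day 2 by edgeR, with a median of 0.02. Unadjusted, 2 higher and 4 lower factors were below 0.05, against 1948 higher and 1523 lower of 14472 genes tested. At day 4 Eif1, Eif1ax, Eif2s1 and Eif3b fell, with a median of -0.30. Of 25 genes of mTORC1, Myc and the control of these mRNAs, 2 fell at day 2 and at day 4. They were Rheb, the activator of mTORC1 (-0.84, SE 0.20, adjusted p = 0.0191 at day 2), and Ddit4, an inhibitor of it that stress induces (-3.14, SE 0.56, adjusted p = 0.00328 at day 2). Of 10 ribosomal protein paralogs and fusion genes, 2 were called at day 2, among them Rsl24d1, an assembly factor related to Rpl24, which rose (3.64, SE 0.60, adjusted p = 0.0019). Under the water load, averaged over days, 1 gene of all these lists was called, against 0.159% of all genes: Mrps6 fell by 1.01 (SE 0.20, adjusted p = 0.049).

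The 156 tested rows outside the rule that the annotation names as ribosomal proteins had a median log2 difference of -0.37 from day 1 to day 2 and -0.72 to day 4 over both treatments. Of them 5 and 13 were called lower, against 3.5% and 4.48% of all genes, and 0 were called higher, against 2.33% and 3.02%. The count at day 2 is near the share over all genes. They held 0.405% to 0.608% of the reads on genes in day 1 libraries, 0.288% to 0.375% at day 2 and 0.272% to 0.463% at day 4. With all identifiers of a symbol summed, the count of members called over days in control rats was 20.

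Marker lists of other cells are given beside the days. The shares of all genes called over both treatments are those given above for the related lists. The summed CPM of 10 intercalated cell markers was 11700 to 14690 at day 1, 12700 to 17070 at day 2 and 14820 to 18470 at day 4, while 11 principal cell markers summed to 16690 to 42670, 15270 to 42870 and 19250 to 71460. From day 1 to day 2 over both treatments the median log2 difference was 0.01 over the principal cell markers and 0.04 over the intercalated cell markers, with 1 of 11 and 2 of 10 called. It was -1.06 over 17 proximal tubule, 0.34 over 11 immune cell, 0.20 over 12 endothelial and stromal and 1.03 over 10 dividing cell markers tested, with 1 endothelial or stromal marker called and 0 of the other 3 lists. At day 4 minus day 1 the medians were 0.02 for principal cell (2 called), 0.29 for intercalated cell (2 called), -2.10 for proximal tubule (1 called), -0.64 for immune cell (0 called, 10 of 11 lower), -1.57 for endothelial and stromal (1 called, 11 of 12 lower) and 0.25 for dividing cell markers (1 called). The 17 proximal tubule markers summed to 84.1 to 8292, 61.3 to 2854 and 43.5 to 401 CPM, and 10 of them, with Slc5a2, Slc5a12 and Cubn, were at 0 in at least 1 library. With their level as a covariate, 25 members were called over days in control rats, 0 over days in water-loaded rats, and 21 from day 1 to day 2 over both treatments. The shares of all genes called in that fit are not given here, so its counts describe the members only. The 12 immune cell markers summed to 114 to 408, 141 to 972 and 61.7 to 281 CPM, with Ptprc at 0 in 12 libraries and Cd3e in 17. The 10 markers of dividing cells summed to 72.2 to 230, 105 to 477 and 145 to 271 CPM. Endothelial and stromal markers summed to 127 to 2315, 81.8 to 764 and 25.1 to 355 CPM. Over 6 loop of Henle and distal tubule markers tested, the medians over both treatments were 0.46 at day 2 and 0.57 at day 4, with 0 called. Their sum was highest in day 2 control 3, at 919.8 CPM, and next in day 2 control 1, at 432.1 CPM. Over 3 red blood cell markers tested the medians were 3.86 and 2.92, with 0 called, and Hba1 was at 0 in 7 libraries and Hbb in 9. Apart from these fits with the proximal tubule level, the part of other cells in the results was not tested.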

How the data were processed

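Gene expression was measured by RNA-seq in 20 libraries, 1 per rat, in 6 groups of day and treatment. The count table deposited by the authors holds whole reads per Ensembl gene. The FPKM table deposited by the authors holds the same counts rescaled by length and depth: of 13538 genes checked, 0 had an implied length that varied by more than 0.1% between libraries. The submitters' processing notes name HTSeq, SAMtools, STAR 2.4.0.1, Trimmomatic 0.32 and the build rn6 but no settings. The annotation version and strand setting were not given in the sources used here. Summary lines without a gene (31.45% to 35.61% of a library's reads) entered neither library sizes nor tests. Reads on genes numbered 33.5 to 74.9 M, so that 1 read was worth 0.0134 to 0.0298 CPM. Reads were amplified with no molecular identifier, so depth speaks for counting error only.

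The main test was that of edgeR 4.0.16 under R 4.3.3 on the counts (quasi-likelihood, robust, TMM factors, filterByExpr on group) in 1 fit of 20 libraries with a mean per group. The labels state no test. Adjusted p is Benjamini-Hochberg over the 14472 genes tested, with a threshold of 0.05. The comparisons were water load minus control at days 1, 2 and 4 and their average, the effect of the water load between days (F test), and the days within each treatment (F tests). The pairwise differences between days, over both treatments and within each, were added after the F tests were seen. Intervals are the estimate plus or minus the t quantile times the SE. Log2 CPM used a prior count of 2. P-values measure the spread between rats. No pair of libraries was identical. The procedure was tested on simulated counts. No list was tested as a set. Alternatives used limma 3.58.1, DESeq2 1.42.0, other scalings and filters, covariates, and log2(FPKM + 1) and log2(FPKM + 0.1).

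The members and lists were chosen with earlier results of these data known. Named members were those called in a comparison, the 3 per direction with the smallest p under the water load, the 5 with the highest and lowest FPKM, the 5 with the largest and smallest spread, and 15 genes by role, of which 13 are members. Rpl12, Rps3a and the examples from the related lists were named after their values were seen, and not every called gene is named. Results of some genes are not reported here; counts over the members include them, and 3 figures leave out their rows. Of the deviations from group means, those of same-numbered libraries correlated at 0.147 to 0.236 at day 2, in all 4 pairs over 0.1. At days 1 and 4 those of same-numbered libraries correlated at -0.0907 to 0.0595. The labels name no pairs of rats, and what the libraries of a number share at day 2 was not tested.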

Additional observations from a re-analysis of the deposited data

Results flagged for a closer look

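Day 2 control 3 was far below the other 3 control libraries of day 2 in the summed level of the small subunit, at 4120 CPM against 6507, 6848 and 6981. In the same library Rpl27 was at 106 CPM against 178.5, 179.7 and 181.2, and Rpsa at 496 CPM against 740.7, 760.7 and 784.7. Day 2 water-loaded 4 was far above the other 3 water-loaded libraries of day 2 in the members' share of reads on genes, at 2.89% against 2.53%, 2.57% and 2.58%. There Rpl27a was at 833 CPM against 453.3, 460.2 and 514.2. In each case the gap to the nearest library, divided by the range of the group, exceeded 0.829. Of 64 groups of 4 tested in this way 5 passed, and chance alone passes about 1 in 20.

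Rows outside the rule that the annotation names as ribosomal proteins, which no comparison of the members used, held 0.346% of the reads on genes as the median of 20 libraries.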

How the results depend on the processing

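Calls for the water load remained 0 at every day, on average and between days, under each alternative in which that comparison was run. The test between days was not run with replicate number as a block, with DESeq2 or on the libraries of a single day. Fits of a single day also gave no average over days. With replicate number as a block, median log2 differences were -0.218, 0.287 and -0.089 at days 1, 2 and 4 and 0.000 on average. With the block at day 2 only, where same-numbered libraries correlated, they were 0.287 at day 2 and -0.032 on average. The block changed no call. The median at day 1 spanned -0.483 to 0.14 when each library was left out in turn, and that at day 2 was -0.134 with the share of multi-mapped reads as a covariate. The day 1 differences of Rpl35 and Rpl41 turned to -0.0412 and -0.0172 with the proximal tubule level as a covariate, and with single libraries left out Rpl35 spanned -0.00968 (without day 1 water-loaded 2) to 0.66 and Rpl6 -0.00315 (without day 1 control 3) to 1.13, none of them called. The cause of these and of the following changes was not tested, other than that fewer libraries were fitted.

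When each library was left out in turn, members called ranged from 3 to 20 over days in control rats, from 0 to 5 over days in water-loaded rats, from 0 to 18 and from 1 to 15 in control rats at days 2 and 4 against day 1, from 0 to 1 and from 0 to 9 in water-loaded rats, and from 14 to 24 and from 16 to 29 over both treatments. The median of day 4 minus day 1 in control rats ranged from -1.147 to -0.579. The ratio of the mean sums ranged from 0.468 to 0.672 and from 0.578 to 0.829 in control rats at days 2 and 4 over day 1, and from 0.692 to 1.05 for water-loaded over control rats at day 1. Without both day 1 control 1 and day 1 water-loaded 2, members called were 8 and 0 over days in control and water-loaded rats, 1 and 5 in control rats at days 2 and 4 (median -0.617 at day 4), 1 in water-loaded rats at day 4 and 13 over both treatments at day 2.

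With the share of multi-mapped reads as a covariate, members called were 0 and 1 over days in control and water-loaded rats and 0 in control rats at days 2 and 4 (medians -0.492 and -0.381), 0 in water-loaded rats at day 4 (-0.428) and 5 over both treatments at day 4 (-0.404). With the number of detected genes they were 10 and 0 over days, 0 in control rats at day 2, 0 in water-loaded rats at day 4 (median -0.477), and 0 and 14 over both treatments at days 2 and 4. With the proximal tubule level they were 0 over days in water-loaded rats.

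With library size only they were 1 over days in water-loaded rats and 1 at both later days there (median -0.395 at day 4), and the median over both treatments at day 4 was -0.474; the median of all genes moved up by 0.342 and 0.283 in these day 4 comparisons. In that scaling 9 members fell and 1 rose in control rats at day 4. With a filter of 10 CPM members called were 2 and 9 in water-loaded rats at days 2 and 4. At day 4 in water-loaded rats they were 7 with TMM factors from other genes, 6 without a filter and 7 with all identifiers of a symbol summed. DESeq2 called 27 and 21 in control rats and 6 and 16 in water-loaded rats at days 2 and 4, and limma-voom 3 and 6 in water-loaded rats. DESeq2 also called more of all genes than edgeR did in water-loaded rats at day 2. The counts in this section stand without the share of all genes that each setting called, so they describe the members only. On log2(FPKM + 1) members called were 2 and 5 in water-loaded rats and 4 over days there, both with and without the filter, and with 0.1 in place of 1 they were 4, 5 and 4. Medians at day 4 were -0.659 in control rats, -0.381 in water-loaded rats and -0.452 over both treatments on log2(FPKM + 1), with and without the filter, and -0.413 and -0.467 in the last 2 with 0.1.

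The summed ratio per 10000 reads including multi-mapped ones was 0.664 in control rats at day 2 and 0.804 in water-loaded rats at day 4. With library size only the latter was 0.799, and on the summed FPKM of the authors the day 4 ratios were 0.816 in control and 0.818 in water-loaded rats.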
